A study of Mus musculus with 12 samples.

Results

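The promoter mark H3K4me3, histone H3 carrying 3 methyl groups on lysine 4, was mapped in the epithelium of the fetal mouse lung in 3 libraries, and the landscape described here rests on those 3 libraries of the 12 samples in the series. A region was a stretch of at least 20 bases on chromosomes 1 to 19 covered by a peak in at least 2 of the 3 libraries. There were 15019 such regions, and 11808 of 20665 protein-coding genes had one within 1 kb of an annotated gene end; these genes are called marked. Each gene was ranked by the width of its widest such region and by the within-library rank of the authors' fold enrichment of its highest peak.

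All libraries came from EpCAM+ cells, selected with antibody-coated magnetic beads from pooled lungs of wild-type C57Bl6 fetuses at E17.5, a late fetal age. The method was CUT&RUN, in which an antibody guides a nuclease that cuts out nearby chromatin, with 100000 cells per reaction. The H3K4me3 libraries, replicates 1, 2 and 3, used 1 rabbit antibody and no treatment. Peak lists of NKX2-1 (3 libraries), PRDM16 (2) and PRDM3 (1), transcriptional regulators mapped in cells prepared in the same way, served for comparison. The labels do not say whether the replicates came from separate pools, so spreads and p-values describe these libraries and may be technical. The 3 IgG control samples were not analysed here.

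H3K4me3 is laid down by SET1 and MLL methyltransferases around the starts of active genes, mostly over CpG-rich promoters, and is read by factors that help recruit the transcription machinery. In many cell types the mark spreads over several kilobases at the genes that define the cell, while most active promoters carry a short domain. At this age the mouse lung epithelium is parting into alveolar type 1 (AT1) cells, flat cells across which gas diffuses, and alveolar type 2 (AT2) cells, which make surfactant, under regulators such as NKX2-1, FOXA1, FOXA2 and GATA6.

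Promoter sequences of 6 genes show the range of base composition behind the marked and unmarked genes. Each window runs from 250 bases before to 50 bases after a start listed by RefSeq (GRCm38.p6), 5′ to 3′ on the gene's strand, and capitals mark each CpG, the dinucleotide that promoters of broadly active genes are rich in. Nkx2-1 and Foxa2 had the widest and the 4th widest region, Gapdh is a housekeeping gene, Sftpb is an alveolar gene, and Alb and Lhx3 had no region.
Nkx2-1, chr12:56536859-56537158, minus strand: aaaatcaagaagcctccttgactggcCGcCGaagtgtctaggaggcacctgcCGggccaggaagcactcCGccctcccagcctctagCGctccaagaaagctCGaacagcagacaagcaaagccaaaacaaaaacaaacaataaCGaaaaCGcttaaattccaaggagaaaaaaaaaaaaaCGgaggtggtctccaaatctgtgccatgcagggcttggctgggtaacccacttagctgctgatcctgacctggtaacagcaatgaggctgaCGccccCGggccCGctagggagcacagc
Foxa2, chr2:148045899-148046198, minus strand: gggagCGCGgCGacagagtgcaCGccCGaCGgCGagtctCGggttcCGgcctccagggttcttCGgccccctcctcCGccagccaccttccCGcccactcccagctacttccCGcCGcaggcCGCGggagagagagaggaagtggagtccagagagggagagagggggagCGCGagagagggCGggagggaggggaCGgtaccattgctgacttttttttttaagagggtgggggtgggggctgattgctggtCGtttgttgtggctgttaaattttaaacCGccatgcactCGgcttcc
Gapdh, chr6:125165724-125166023, minus strand: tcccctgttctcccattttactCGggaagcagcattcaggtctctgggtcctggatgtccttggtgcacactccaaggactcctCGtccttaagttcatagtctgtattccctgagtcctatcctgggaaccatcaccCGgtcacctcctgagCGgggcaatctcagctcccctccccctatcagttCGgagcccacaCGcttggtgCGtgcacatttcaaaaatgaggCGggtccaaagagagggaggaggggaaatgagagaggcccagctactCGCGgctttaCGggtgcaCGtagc
Sftpb, chr6:72304360-72304659, plus strand: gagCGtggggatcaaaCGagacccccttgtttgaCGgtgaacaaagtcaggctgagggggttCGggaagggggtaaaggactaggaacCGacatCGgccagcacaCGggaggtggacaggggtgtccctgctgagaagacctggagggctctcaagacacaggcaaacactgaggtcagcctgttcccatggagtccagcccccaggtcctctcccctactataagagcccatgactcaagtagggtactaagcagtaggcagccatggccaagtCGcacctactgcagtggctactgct
Alb, chr5:90460620-90460919, plus strand: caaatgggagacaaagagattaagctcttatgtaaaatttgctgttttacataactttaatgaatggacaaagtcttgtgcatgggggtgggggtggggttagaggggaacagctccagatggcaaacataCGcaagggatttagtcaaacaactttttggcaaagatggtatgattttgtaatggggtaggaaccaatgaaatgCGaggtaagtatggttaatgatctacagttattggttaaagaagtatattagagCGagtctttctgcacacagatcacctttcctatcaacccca
Lhx3, chr2:26206526-26206825, minus strand: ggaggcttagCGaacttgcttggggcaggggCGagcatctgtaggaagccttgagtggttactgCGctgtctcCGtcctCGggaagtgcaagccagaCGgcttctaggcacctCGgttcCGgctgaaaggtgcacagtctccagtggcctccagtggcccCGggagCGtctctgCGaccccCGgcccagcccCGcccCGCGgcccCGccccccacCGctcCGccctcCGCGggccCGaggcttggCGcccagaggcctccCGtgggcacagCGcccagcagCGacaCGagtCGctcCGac
The windows hold 12 CpG at Nkx2-1, 23 at Foxa2, 12 at Gapdh, 8 at Sftpb, 3 at Alb, the albumin gene of the liver, and 28 at Lhx3, a pituitary and motor neuron regulator. For genes with several listed starts the window richest in CpG is shown; Foxa2 has further windows of 12 and 13 CpG and Lhx3 one of 13.

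The peak lists differed more in number and in fold enrichment than in width. Replicates 1, 2 and 3 had 18538, 15057 and 14146 peaks on chromosomes 1 to 19 (15914 ± 2318, SD, n = 3), covering 29.2, 24.3 and 21.7 Mb. The median peak width was 1392, 1443 and 1358 bases (1398 ± 42.8, SD, n = 3). The authors' fold enrichment, a ratio to background that sets the scale of each list, had medians of 14.1, 30.4 and 26.8. Peak names carry one series of labels in replicate 1 and another in replicates 2 and 3, so a possible batch runs between replicate 1 and the other two. The depth behind each peak is unknown from these lists, and the labels give only a minimum number of reads.

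H3K4me3 peaks were wider than those of the 3 regulators. The median peak width was 1398 ± 42.8 bases (SD, n = 3) against 372 ± 69.5 bases (SD, n = 6) in the NKX2-1, PRDM16 and PRDM3 libraries. The groups did not overlap, since the narrowest H3K4me3 library had a median of 1358 bases and the widest regulator library one of 479 bases. The difference of 1026 bases had p = 0.0238 in a two-sided exact permutation test over the 9 libraries, the smallest p this design can give. The test treats the libraries of 3 different regulators as 1 group. Against NKX2-1 alone, or PRDM16 and PRDM3 alone, it cannot pass 0.05. Peaks of at least 2 kb made up 27.4 ± 2.60% of H3K4me3 peaks (SD, n = 3) and 1.10 ± 1.15% of regulator peaks (SD, n = 6), a difference of 26.3 percentage points with the same exact p of 0.0238. The regulator lists were deposited at a looser threshold, and with only peaks of −log10 q of at least 5 the difference in median width was 481 bases, with p = 0.0238 in the same exact permutation test.

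The regions covered 24.0 Mb and had a median width of 1435 bases. Of them, 13329 (88.7%) were touched by peaks of all 3 libraries and had a median width of 1565 bases, and the 1690 touched by 2 libraries had a median of 287 bases. Within 1 kb of a protein-coding gene end lay 10652 regions (70.9%), with a median width of 1630 bases, and the 4367 regions elsewhere had a median of 790 bases. The 10th and 90th percentiles of width were 384 and 2880 bases. Only 175 regions reached 5 kb, 150 of them near a gene end, and all 10 regions of at least 10 kb lay near a gene end. A single region lay near the ends of 2 or more genes in 1822 cases, so a gene can be called marked through a neighbour's promoter.

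Nkx2-1, the homeobox regulator that specifies lung epithelium, had the widest region of all. Its region spanned 21051 bases (chr12:56518121-56539171), with peaks of 21616, 21051 and 20023 bases in replicates 1, 2 and 3. The gene itself is 4974 bases long on the minus strand, and the region ran 2263 bases upstream of its listed start and 18787 bases downstream, across the whole gene and past its 3′ end over the neighbouring noncoding genes Gm26973 and Sfta3-ps. It was the widest peak of the ranking in each library, since the next, at Irx5, reached at most 16671 bases. The height of the Nkx2-1 peak was less even: its fold enrichment was 12.5, 70.5 and 64.6, which placed it at the 44.6th, 94.9th and 98.2nd percentile of the peaks of its library.

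Further transcription factors of development ranked high. Irx5 came second with 15961 bases (chr8:92350624-92366584; peaks of 16671, 15599 and 15680 bases) and Irx2 next with 14143 bases (chr13:72621534-72635676; 16035, 14143 and 13836 bases). Both are Iroquois homeobox genes, and a further member, Irx3, stood at 9524 bases (9831, 9708 and 9457 bases). Foxa2, a pioneer factor of foregut epithelium, had 12332 bases (chr2:148034853-148047184). Its peaks were 9813, 12332 and 12109 bases wide, and replicate 1 split it into 2 peaks. Gata6, a zinc finger regulator of endoderm, had 11847 bases (chr18:11047971-11059817; 13941, 11847 and 11787 bases). Foxp2, a forkhead repressor of the distal lung, had 10654 bases (11123, 10712 and 10145 bases). Replicate 1 gave the widest peak at each of these genes except Foxa2. Foxa2 and Gata6 overlapped in their range over the libraries, so their order is not separated by that spread.

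The remaining regions of the top 20 belonged to regulators and signalling genes of several kinds. They were Tnrc18 (11139 bases), Irs1 (10396), which relays insulin and IGF signals, Zfp503 (10238), the pair Rhof and Setd1b (10125), which share a region and of which Setd1b encodes an H3K4 methyltransferase, and Smad7 (9628), an inhibitor of TGF-beta signalling. They continued with Bahcc1 (9435), Prdm16 (9029), the target of one of the antibodies of the study, Irf2bp2 (8804), Nfib (8760), a regulator of lung maturation, Id2 (8745), a marker of the distal tip, Fgfr2 (8644), the receptor for FGF10, and Zfp516 (8626). The last of the 20 (8563) lay near ends of Muc1, Thbs3 and Trim46, but only Muc1 has its listed start there. The promoter windows of Thbs3 lay in another region, of 2065 bases, and those of Trim46 in regions of 1084 and 1017 bases. The window of Rhof likewise lay in another region, of 1410 bases. Just below the 20 stood the region of Qk, with 8297 bases. It also reached an end of Gm46608, whose listed promoter window overlapped no region. Most of the 20 regions touched an annotated noncoding gene as well, such as Crnde at Irx5, Gm20554 at Irx2, 9030622O22Rik at Foxa2, Gata6os at Gata6 and Prdm16os at Prdm16. None was listed at Foxp2, Irs1, Setd1b, Id2, Fgfr2 or Zfp516. A width can thus span a coding gene and a noncoding neighbour.

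**Figure D1:**
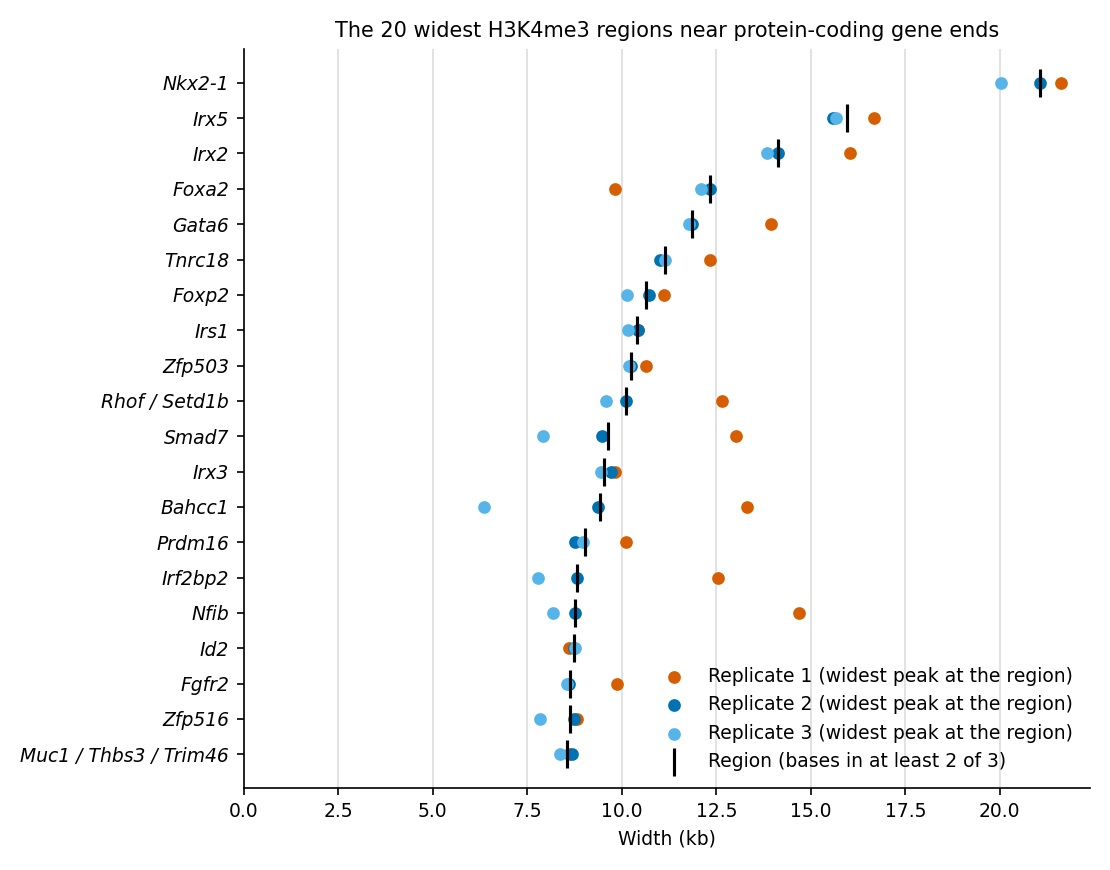
Width in kb (horizontal axis) of the 20 widest H3K4me3 regions near protein-coding gene ends, named by gene. Coloured points give the widest peak touching the region in each of the 3 libraries and the black tick the region itself; Nkx2-1 lies apart at 20023 to 21616 bases in the 3 libraries, while replicate 1 lies well to the right of the other 2 at Nfib, Bahcc1, Irf2bp2 and Smad7.

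At several of these genes 1 library set the upper value. Nfib had peaks of 14677 bases in replicate 1 and of 8760 and 8186 bases in replicates 2 and 3. Bahcc1 had 13324, 9378 and 6349 bases, so that all 3 libraries differed. Mecom, which encodes PRDM3, had a region of 6496 bases with peaks of 12610, 6496 and 6042 bases. The region width follows the 2 libraries that agree, which keeps such a long peak of a single library out of the ranking. When bases had to be covered in all 3 libraries, Bahcc1, Irf2bp2 and Zfp516 left the top 20, and Nkx2-1 stayed first with 20023 bases.

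Foxa1, the close relative of Foxa2, showed how the rule on gaps can hide a wide domain. The gene had 2 neighbouring regions of 8068 and 7791 bases (chr12:57534601-57542668 and chr12:57542885-57550675), the second also near the end of Ttc6. With regions closer than 500 bases joined, the Foxa1 domain measured 16075 bases and stood among the 5 widest. Ttc6 has an end near it, but its listed promoter window overlapped no region before the joining. Under the same joining Mecom and Shh entered the 20 widest.

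Genes grouped by role differed in how many were marked and in how wide their regions were. Among all 20665 genes 57.1% had a region, and the median width over the marked genes was 1721 bases. Regions of at least 3144 bases make up the widest 10.0% of the marked genes, which is the background for the counts of wide genes that follow.

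Lung epithelial transcription factors had the highest median width of the 18 lists examined. The lists were chosen with earlier results of these data known, so this rank and the counts below are a description and not a test. Of 28 such genes 26 were marked, with a median of 5817.5 bases, and 20 of the 26 were among the widest 10.0%. The 100 widest regions belonged to 118 genes, 0.999% of the marked genes, and 14 of the lung factors were among these. By library the median peak width was 6415, 5827.5 and 5587.5 bases in replicates 1, 2 and 3. Beyond those named above, Irx1 had 8085 bases, Etv5, an effector of FGF signalling, 7514 bases, and Sox9, a factor of the branching tip, 6436 bases. Cebpa had 5486 bases. At the other end Sox2, the factor of the conducting airway, had 1152 bases (peaks of 1068, 3465 and 859 bases), Elf3 had 881 bases, and Ehf had 256 bases with peaks in replicates 2 and 3 only. Elf5 and Nfia had no region within 1 kb of a gene end, but both had a region inside the gene, and at Elf5 it lay by a listed start.

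Genes of alveolar cells were mostly marked. Of 24 AT1 genes 22 were marked (median 2984.5 bases), 10 of them among the widest 10.0%. Vegfa, which AT1 cells release to guide vessels, had 6602 bases (peaks of 6563, 6649 and 6463 bases), followed by Gprc5a (5160), Cav1 (4342), the caveolae protein, and Emp2 (4187). Ager, the receptor RAGE, had 2968 bases (3276, 2968 and 2656 bases) in a region shared with Pbx2 and Rnf5. Hopx, a cofactor that marks AT1 cells, had 739 bases at a gene end, while a listed start with 21 CpG lay in another region, of 3261 bases. Its widest peaks within reach of a gene end were 408, 2455 and 739 bases, and the replicate 1 peak did not touch the region. Cldn18 and Clic5 were the 2 unmarked genes, and each had a region by an internal listed start.

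Of 23 AT2 genes 19 were marked (median 3011 bases), 9 of them among the widest 10.0%. Besides Fgfr2 and Muc1, the widest were Slc34a2, a phosphate transporter of AT2 cells, with 7181 bases (6595, 7849 and 7181 bases) and Sftpc, the surfactant protein most specific to AT2 cells, with 5853 bases (7233, 5747 and 5537 bases) in a region it shares with Bmp1. Abca3, the lipid transporter of lamellar bodies, had 5503 bases in a region shared with Abca17. The other surfactant protein genes had narrower regions. Sftpb had 1679 bases with peaks of 1678, 2166 and 3091 bases, and 3302 bases with regions closer than 500 bases joined. Sftpa1 had 2003 bases with peaks of 727, 2612 and 2003 bases, at the 7.52nd, 6.27th and 13.7th percentile of fold enrichment. Its region was 727 bases without replicate 2, without replicate 3 or with all 3 libraries required. Sftpd had only 175 bases and no peak in replicate 1. The 4 unmarked genes were Cd36, Chil1, Hc and Lyz2, of which Cd36 and Hc had a region inside the gene.

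**Figure D2:**
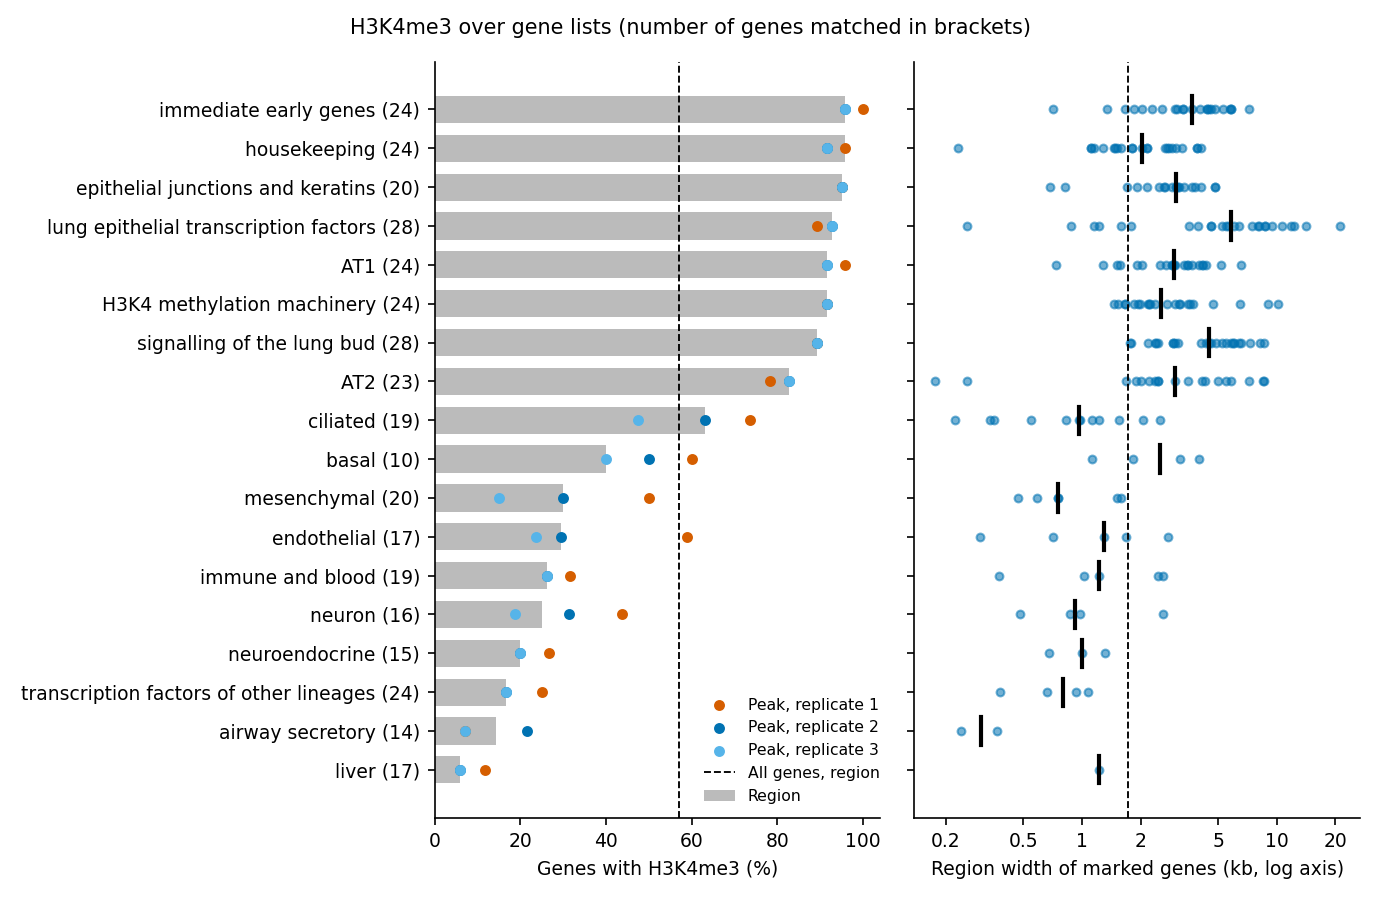
Left, share of each gene list with an H3K4me3 region (grey bars) and with a peak in each library (coloured points, which can lie on top of each other), in percent of the genes matched, given in brackets. Right, region width in kb on a log axis for each marked gene (points) with the list's median (black bar); dashed lines mark all genes, at 57.1% and 1721 bases. Lung epithelial transcription factors have the median furthest right. The mesenchymal, endothelial, immune and blood, neuron and liver lists lie below both dashed lines in share and median, while the basal median and the ciliated share do not.

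Most epithelial junction and keratin genes in the list were marked. Of 20 such genes 19 were marked (median 3024 bases), and Cldn18 was the exception. Being marked does not by itself identify epithelium, since 23 of 24 housekeeping genes were marked as well. The narrowest regions at a gene end were those of Tjp1 (682 bases) and Itgb4 (822), and a listed start of Tjp1 lay in a region of 3580 bases. Cdh1, which encodes E-cadherin, had 3799 bases (4140, 3814 and 3347 bases) and Epcam, the antigen used for sorting, had 3120 bases (3170, 3131 and 3102 bases). Esrp1 and Esrp2, epithelial splicing regulators, had 4846 and 4841 bases, and Cldn3 had 4098 bases. Among all 53 keratin genes, only 6 were marked. Krt7, Krt19, Krt8 and Krt18, the keratins of simple epithelium, came first with 3658, 3048, 2639 and 1923 bases.

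Few genes of other cell types were marked, and the median width of each list lay below that of all genes. Of 20 mesenchymal genes 6 were marked (median 750.5 bases), of 17 endothelial genes 5 (1305 bases), of 19 immune and blood genes 5 (1221 bases), of 16 neuronal genes 4 (920.5 bases) and of 17 liver genes 1. None of these marked genes was among the widest 10.0%. Several shared their region with a neighbour: Cd79a with Arhgef1, Lcp1 with Lrrc63, Grin1 with Lrrc26 and Tmem210, and Apoa2, the only liver gene, with Tomm40l. Defining genes without a region were Pecam1 and Cdh5 of endothelium, Ptprc and Csf1r of leukocytes, Acta2, Pdgfra and Col3a1 of mesenchyme, and Alb of liver; a region lay inside Pdgfra. Kdr, the VEGF receptor of endothelium, was the widest unshared gene here with 2775 bases (1767, 2775 and 2448 bases), at the 32.7th, 13.2nd and 23.7th percentile of fold enrichment. Lcp1, a leukocyte actin-bundling protein, had 2471 bases at the higher percentiles of 96.8, 78.6 and 68.9. Klf1, a regulator of red blood cells, had 1221 bases at 94.8, 70.5 and 58.0. That region lay within reach of a Klf1 gene end, but the listed promoter window of Klf1, with 3 CpG, overlapped no region. CpG content differed between these lists. The genes with a promoter window held a median of 5 CpG in the immune and blood list and 4 in the liver list. The median was 11 in the mesenchymal, 12 in the endothelial and 23 in the neuronal list, against 15 for all genes. Among all windows, 4.31% of those with 0 to 4 CpG and 27.9% of those with 5 to 9 overlapped a region. Whether the low counts follow CpG content was not tested.

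The libraries differed in number over the mesenchymal, endothelial and neuronal genes. Replicate 1 had a peak at 10 of the 20 mesenchymal genes, replicate 2 at 6 and replicate 3 at 3. At the 17 endothelial genes the counts were 10, 5 and 4, and at the 16 neuronal genes 7, 5 and 3. They lay closer at the 19 immune and blood genes, with 6, 5 and 5, and at the 17 liver genes, with 2, 1 and 1. The background share of all genes with a peak was 60.2%, 57.3% and 55.7% in the same order, a much smaller step. Cdh5, Eng, Erg, Sox18 and Tie1 of endothelium and Col3a1, Fgf10, Tcf21 and Twist2 of mesenchyme had a peak in replicate 1 only, and those peaks were 210 to 801 bases wide. Whether other cells in the preparation or the setting of the peak call contributed was not tested. In a bulk library fewer marked cells and a weaker mark per cell cannot be told apart.

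Airway secretory and neuroendocrine genes were sparsely marked, and basal and ciliated genes more often. Of 14 airway secretory genes 2 were marked, Scgb3a2 with 368 bases and Lypd2 with 240 bases, and neither was covered in all 3 libraries. Scgb1a1, the club cell secretoglobin, Muc5ac and Muc5b had no region. The genes with a promoter window held a median of 3 CpG in the airway secretory list. That median was 11 in the neuroendocrine, 19 in the basal and 17 in the ciliated list, against 15 for all genes. Of 15 neuroendocrine genes 3 were marked, among them Uchl1 (1308 bases) and Insm1 (996). Of 10 basal cell genes 4 were marked, with a median of 2506.5 bases, above that of all genes, and 2 among the widest 10.0%. They were led by Pdpn, which also stands in the AT1 list, and Icam1, which shares its region with Icam4 and Icam5. Trp63, Krt5 and Krt14 had no region. Ciliated cell genes lay nearer the background with 12 of 19 marked, but their median was 968 bases. Foxj1, the master regulator of motile cilia, had 1132 bases with peaks of 1992, 1132 and 383 bases, in a region shared with Rnf157.

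Regulators that direct other lineages were mostly unmarked. Of 24 such genes 4 were marked, among them Nkx6-1 (930 bases), Tbx1 (660) and Isl1 (380). Tbx1 had peaks of 7179, 657 and 613 bases, and its start with 26 CpG lay in another region, of 4753 bases. Among the 20 unmarked were Gata4, Lhx3, Myod1, Neurog2, Olig2, Pax6 and Sox10. Of the 16 genes of this list with a promoter window 7 had a window of at least 20 CpG, and 3 of these 7 were marked, against 5851 of 6624 (88.3%) of all genes with such a window. Hox genes pattern the body axis. Of 39 on these chromosomes 3 were marked, Hoxb2 and Hoxa4 among them, and 0 of the 11 with such a CpG-rich window was marked, beside the same 88.3% of all genes. Replicate 1 had a peak at 15 Hox genes, replicate 2 at 3 and replicate 3 at 1.

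Signalling and stress-responsive genes had wide regions as well. Of 28 genes of lung bud signalling 25 were marked (median 4509 bases), 15 of them among the widest 10.0%. Hes1, a Notch target, had 8264 bases, Spry2, an FGF inhibitor, 7286 bases, Bmp4 5939 bases and Shh 5832 bases. The 3 unmarked genes, Axin2, Pdgfa and Tgfb2, each had a region by an internal listed start. Of 24 immediate early genes 23 were marked (median 3659 bases) and 14 were among the widest 10.0%, led by Fosl2 (7200), Ier2 (5865), Jun (5818) and Atf3 (5787). These genes are switched on rapidly by many stimuli.

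Housekeeping genes were mostly marked, with a median width nearer that of all genes. Of 24 such genes 23 were marked with a median of 2027 bases, and 4 were among the widest 10.0%. Actb had 4071 bases (4820, 4068 and 3929 bases) and Gapdh 3882 bases (3882, 4135 and 3443 bases). Of 79 cytosolic ribosomal protein genes 76 were marked, with a median of 1902.5 bases and 1 gene among the widest 10.0%, Rpl7. The 3 without a region were Rpl10l, Rpl32l and Rpl39l. Of 38 subunits of respiratory complex I 35 were marked (median 1542 bases), and of 39 proteasome subunits 36 (1557 bases). Of 72 histone genes 65 were marked, with a median of 3428 bases and 36 among the widest 10.0%. They lie in clusters, so neighbours share regions, such as H4c8, H2ac10 and H3c8 with 1 region of 7197 bases.

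The list drawn up around H3K4 methylation holds writers, erasers and readers of the mark, and also Prdm16 and Mecom. Of its 24 genes 22 were marked, with a median of 2546.5 bases and 9 among the widest 10.0%. Setd1b, Prdm16 and Mecom led, followed by Kmt2d (4711 bases; peaks of 5659, 4711 and 1339 bases) and Kmt2c (3730), both MLL methyltransferases of enhancers. Ash2l and Dpy30, subunits of the methyltransferase core, had no region at a gene end but had one inside the gene.

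The unmarked genes numbered 8857, or 42.9% of the total. Of these 8092 had no peak in any library and 751 a peak in 1 library, which was replicate 1 for 658 of them. A listed start within 1 kb of a region was found at 649 unmarked genes, so that part of the group was marked at a start inside the gene. Olfactory and vomeronasal receptors made up 16.4% of the unmarked genes. Of 1100 olfactory receptor genes 0 were marked, of 352 vomeronasal receptors 2, Vmn1r4 and Vmn2r29, and of 38 taste receptors 1, Tas1r1. None of 56 keratin-associated protein genes, 70 defensins, 35 late cornified envelope and small proline-rich genes or 25 prolactin family genes was marked. Replicate 1 had a peak at 1 olfactory receptor gene, and replicates 2 and 3 at 0.

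CpG content separated marked from unmarked promoters. Of 20063 promoter windows of 300 bases, from 16437 of the 20665 genes, 11237 overlapped a region. The share was 4.31% among windows with 0 to 4 CpG, 27.9% with 5 to 9, 70.4% with 10 to 14, 84.9% with 15 to 19, 91.6% with 20 to 29 and 95.0% with 30 or more. By library the share was 4.50 ± 0.660% (SD, n = 3) in the lowest class and 95.2 ± 1.78% (SD, n = 3) in the highest, so the classes lay far outside the spread of the libraries. The median window over a region held 23 CpG and the median window without one held 3.

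**Figure D3:**
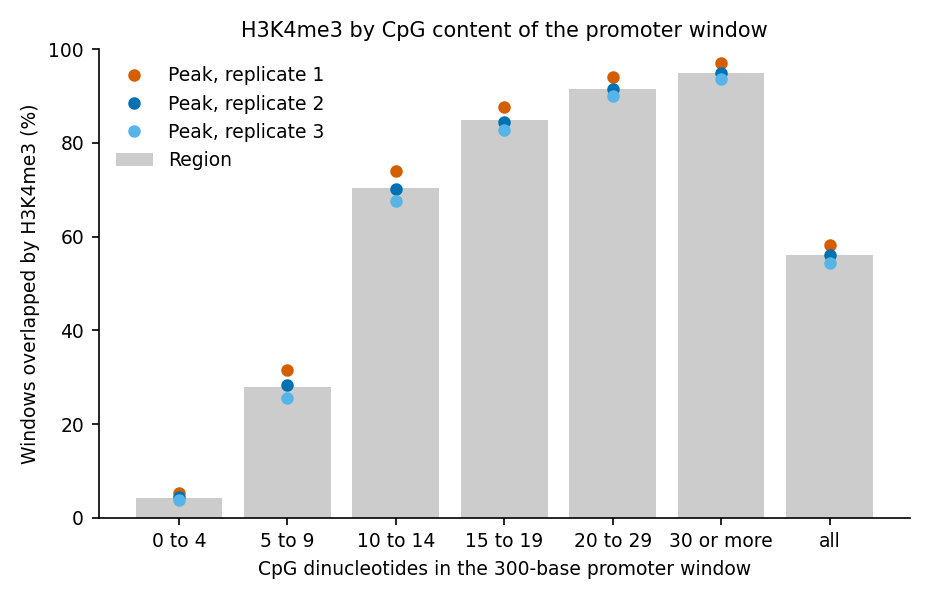
Share of 300-base promoter windows overlapped by H3K4me3 (vertical axis, percent) by number of CpG in the window (horizontal axis). Grey bars give regions and coloured points the peaks of each library; the share climbs from 4.31% to 95.0%, and replicate 1 is highest and replicate 3 lowest in every class.

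Width followed CpG content only loosely. Over windows in regions the Spearman correlation of CpG count with region width was 0.288, and within replicates 1, 2 and 3 it was 0.291, 0.280 and 0.284 over 9145 genes, which share neighbours and base composition. The windows of the 100 widest regions held a median of 21 CpG, close to that of all windows over a region. The TATA motif TATAAA, searched on both strands, stood in 14.6% of the 82 windows of those regions, in 5.75% of all windows over a region, in 21.6% of windows without one and in 12.7% of all windows. The GC box GGGCGG, also on both strands, stood in 67.1%, 70.0%, 17.8% and 47.0% of the same groups. These are matches of letters in the window, not shown sites.

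Peaks reached further into the gene than away from it. Around genes with a listed start, the median peak reached 473 ± 55.7 bases upstream and 1127 ± 94.7 bases downstream (SD, n = 3 libraries), and the downstream side was the longer in 89.6 ± 0.321% of genes (SD, n = 3). In peaks of at least 3144 bases the medians were 1032 ± 45.8 bases upstream and 2827 ± 48.5 bases downstream (SD, n = 3). Not all wide regions followed this: around its listed start Id2 had 5172 bases upstream and 3572 downstream, and Irx3 had 5541 and 3982.

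The 20 widest regions were also places where the mapped regulators had peaks. Each of the 20 held a peak of all 6 regulator libraries, with up to 13 peaks in 1 library. This is near the share among the widest 1066 gene-end regions, of which 94.5% to 99.8% overlapped a peak in each of the 6 libraries. Both statements use all listed peaks. With only peaks of −log10 q of at least 5, the share of these 1066 regions was 11.7% and 21.4% in NKX2-1 replicates 2 and 3. It was 41.1% in PRDM3, 68.3% in PRDM16 replicate 2, 88.0% in PRDM16 replicate 1 and 87.9% in NKX2-1 replicate 1. A wide region has more room for a peak, and the regulator lists are long. Restricted to the central 500 bases, with all listed peaks, the share with a peak of NKX2-1 replicate 1 was 62.5% in the narrowest 1066 gene-end regions. It was 93.4% in the 1065 regions of 1844 to 2107 bases and 82.6% in the widest 1066. The overlap of region centres thus did not climb with width throughout.

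The 3 libraries agreed closely on which genes were marked. Of the genes with a peak in any library, 90.5% had one in all 3. Replicate 1 had 3836 peaks (20.7%) that touched no peak of another library, with a median width of 367.5 bases, against 3.23% in replicate 2 and 0.742% in replicate 3. Of those replicate 1 peaks 22.3% lay near a gene end, against 76.2% of its peaks that touched both other libraries.

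They agreed on width better than on fold enrichment. Over the 11382 genes with a peak in all 3 libraries, the Spearman correlation of peak width was 0.907 between replicates 1 and 2, 0.903 between 1 and 3, and 0.957 between 2 and 3. For fold enrichment the same values were 0.514, 0.520 and 0.895. The correlations are across genes, which are not independent replicates, and replicates 2 and 3 share their series of peak names. Of the 100 widest regions of a library 73 were common to all 3 libraries, and of the 100 with the highest fold 5 were. The median coefficient of variation of width over the 3 libraries was 13.0%, and replicate 1 had the widest peak at 78.1% of genes, with a median ratio of 1.18 to the mean of the others.

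**Figure D4:**
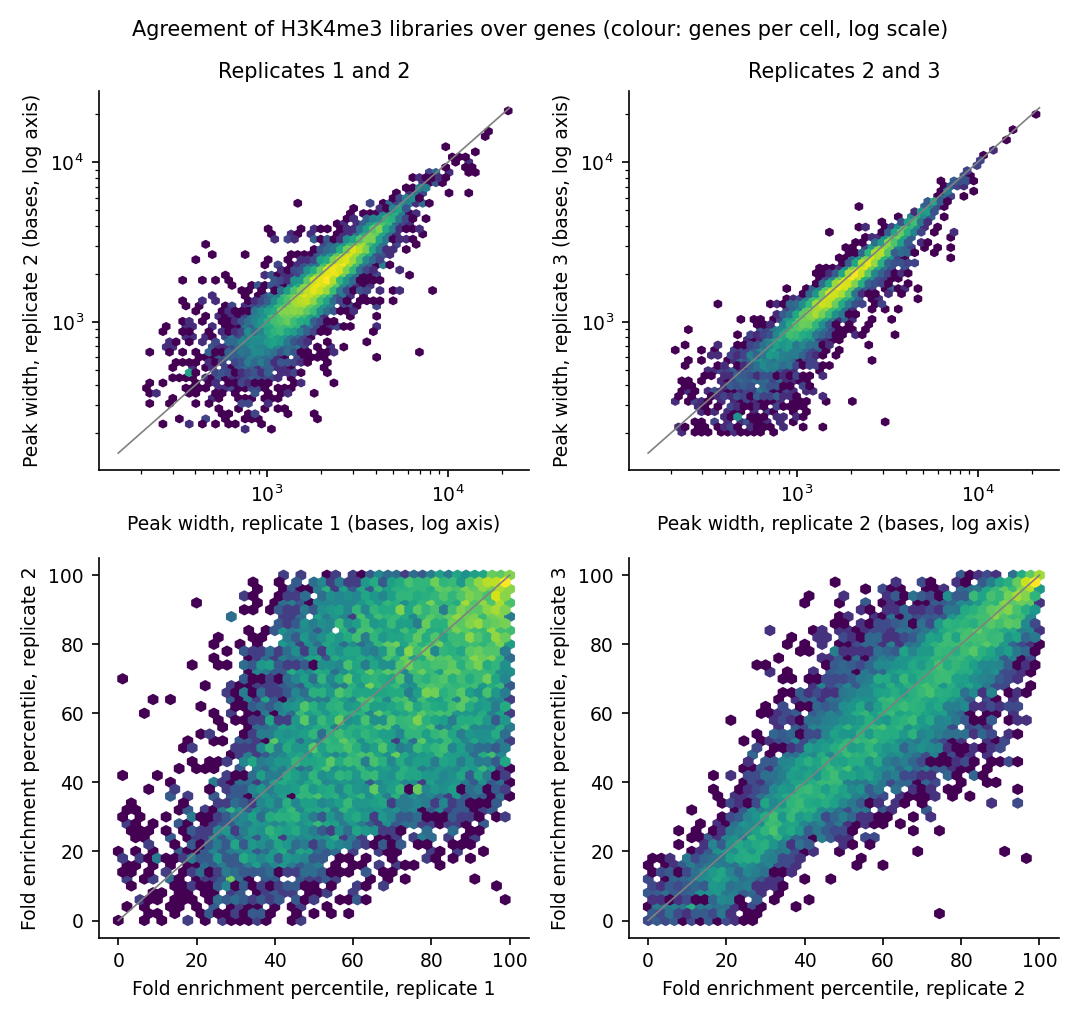
Top, peak width in bases on log axes for each gene with a peak in all 3 libraries, replicate 1 against 2 and replicate 2 against 3; bottom, percentile of fold enrichment within the library for the same pairs. Colour gives genes per cell on a log scale and the grey line equality; width lies along the line in both pairs (Spearman 0.907 and 0.957), fold percentile only for replicates 2 and 3 (0.514 and 0.895).

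The ranking by fold enrichment led to other genes. The best mean percentile over the 3 libraries belonged to Lpgat1, an enzyme of phospholipid synthesis (99.9th percentile; region of 2577 bases), and Cep350, a centrosome protein (2914 bases). Lpgat1 had a fold of 45.6, 102 and 76.9 in replicates 1, 2 and 3. Alad, an enzyme of haem synthesis, followed with 39.6, 127 and 96.5 and a region of 5734 bases, then Spaca6, Aebp2, a partner of the Polycomb complex, the pair Ift80 and Smc4, Vasp, a regulator of actin, and Chd4, a chromatin remodeller. Positions 10 to 20 held Sap30, Kcmf1, Cbfa2t2, Vegfb with Dnajc4, Hipk2, Col4a1 with Col4a2, Fbxo11, Cdkn1b, Mrpl52 with Mmp14, Tm9sf1 with Tssk4, and Gpr108.

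The regions of high fold were of moderate width. The median width of the 100 regions with the best mean fold percentile was 3269 bases, and 6 of them were also among the 100 widest. They belonged to 115 genes, 1.01% of the genes with a peak in all 3 libraries, of which 2 were in the lung transcription factor list. Over 9840 regions the Spearman correlation of width with mean fold percentile was 0.665. Npr3 had a region of 4159 bases at a mean percentile of 23.9. Aqp1, the water channel, had 3407 bases at percentiles of 1.53, 41.7 and 29.7. Gm20783 with LOC108167694 and Bcl2a1b were also wide but low. In the opposite direction stood Psmd6, a proteasome subunit, with 1132 bases at a mean percentile of 96.6, Babam1 with Ushbp1 (898 bases, 87.9), Uqcrc1 (1056, 89.2), Phf13 with Thap3 (1109, 90.9) and Slc4a7 (1107, 89.9).

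At several lung regulators 1 library gave a much lower fold percentile than the others. At Foxa2 the percentiles were 81.1, 91.8 and 20.4 in replicates 1, 2 and 3, and at Mecom 96.3, 70.1 and 32.2. At Gata6 they were 92.2, 63.9 and 95.3. At Prdm16, by contrast, they were 78.8, 84.7 and 83.4, and at Cdh1 87.7, 94.9 and 96.7. The percentile of fold enrichment thus moved widely between libraries at some of the genes with the widest regions.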

How the data were processed

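Peak lists of 3 H3K4me3 and 6 regulator libraries were used. The submitters' processing notes name Bowtie2, HOMER, MACS2 and Trimmomatic and the mouse build mm10 but no version or setting, and do not say whether peaks were called against a control. Each deposited list gives 1 library's peaks with a fold enrichment (a ratio), −log10 p and −log10 q values and a score, all the authors' own. The deposited score is 10 times the −log10 q, cut to a whole number, in the H3K4me3 lists. These lists reach down to −log10 q of about 3, and the regulator lists to −log10 p of about 2.

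Genes were placed by the RefSeq table of GRCm38.p6, the assembly behind mm10, which has no strand column. Either gene end within 1 kb of a region marked a gene, and starts and strands came from RefSeq promoter windows, listed for 16457 of 20665 genes. A gene took its widest region, and in each library its widest peak and its highest fold. A fold percentile is the rank of a peak's fold among the peaks of its library. Regions overlapped from 1 base. Peak lists hold no read depth, and no counting interval was computed.

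The members and lists were chosen with earlier results of these data known. Genes were named by rule: the 20 widest, the 20 with the best mean fold percentile, per list up to 4 widest and up to 4 unmarked, per family the 2 widest, 5 per direction with the largest difference of ranks, and 16 fixed genes. Not all of these are named, some genes are not reported here, and further members were named after their values were seen. Of 366 distinct list genes 359 were matched; Syp, Egfl6, Apln, Gata1, F9, Syn1 and Dcx were not on chromosomes 1 to 19. Width was compared by a two-sided exact permutation test over libraries. The region computation was run on simulated data with 200 planted genes, where all 163 planted in 2 or 3 libraries were found and 0 of 37 planted in 1. The planted genes lay far apart and their peaks shifted little between libraries. This checks the computation only, and not shared neighbours, split peaks or narrow regions. Alternatives were stricter, equal-length or 3-of-3 peak sets, other distances and leaving out each library. Computation used pandas 2.3.3, scipy 1.17.1, numpy 2.4.6 and matplotlib 3.10.9 under Python 3.11.15.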

Additional observations from a re-analysis of the deposited data

Results flagged for a closer look

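Chromosome Y was outside the ranking, and H3K4me3 peaks were found there in all libraries: 8 in replicate 1, 7 in replicate 2 and 7 in replicate 3. Regions covered in at least 2 libraries lay at 4 of 256 protein-coding genes of chromosome Y, Ddx3y (1551 bases), Uty (1485), Eif2s3y (1317) and Kdm5d (1068), which are broadly expressed genes. The lungs were pooled, and the labels used here do not give the sex of the fetuses.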

How the results depend on the processing

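The counts of regions and of marked genes stayed within 1.5 times of those reported under all alternatives run. Regions ranged from 13764 (covered in all 3 libraries) to 15517 (with chromosomes X and Y), and marked genes from 9804 (only listed starts) to 12246 (within 2 kb). Leaving out 1 library gave 13831 to 14722 regions and 11412 to 11698 genes. Nkx2-1 remained the widest under all settings in which regions were redrawn, and 18 to 23 of the 23 genes of the 20 widest regions were kept. The mesenchymal list fell from 6 to 3 genes and the airway secretory list from 2 to 0 when all 3 libraries had to cover a base, and the immune list from 5 to 3 within 500 bases of a gene end. The mean correlation of fold enrichment over the 3 pairs was 0.643, and 0.715 with absent peaks set to 0. The difference in median width kept its direction in all alternatives. It no longer passed 0.05 where the exact test cannot: against NKX2-1 alone it was 1039 bases (p = 0.1 in the exact test without a block, and p = 0.25 in the exact paired test with the replicate number as a block) and against PRDM16 and PRDM3 1013 bases (p = 0.1, exact). The share of wide peaks differed by 26.3 percentage points against NKX2-1 with and without the replicate block and by 26.4 against PRDM16 and PRDM3, with the same exact p. Leaving out each library gave 1003 to 1047 bases and 25.2 to 27.8 percentage points, and without an H3K4me3 library the smallest exact p is 0.0714. Deviations of width over genes had correlations of 0.0206, -0.00561 and 0.0440 between same-numbered H3K4me3 and NKX2-1 libraries, and of -0.0376 to 0.0188 between the others. Such values cannot tell whether same-numbered libraries came from the same pool, which the labels do not say. Depth is unknown, so a gene without a peak may be one not detectable at that depth.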

Other observations

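Noncoding genes carried the mark as well. Of 12408 lncRNA genes on chromosomes 1 to 19, 2172 had a region within 1 kb of an end, and 708 of these were not near a protein-coding gene end. The widest of the latter was at Malat1, an abundant nuclear RNA, with 7770 bases (chr19:5796682-5804451). Of 1136 miRNA genes 160 (14.1%) had a region. Among them were members of the miR-200 family, which keep epithelial identity: Mir200c and Mir141 shared a region of 4376 bases (chr6:124716897-124721272) that is also near a protein-coding gene end, and Mir200b had one of 3936 bases (chr4:156056154-156060089) that is not. Of 391 tRNA genes 221 (56.5%) had a region, close to the 57.1% of protein-coding genes, and of 8884 pseudogenes 150 (1.69%) had one. These noncoding genes were chosen after their values were seen.

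The highest fold enrichment of replicates 2 and 3 was not at a lung gene. It was at a peak in replicate 2 (fold of 165) and at the same place on chromosome 8 in replicate 3 (fold of 141), near Gm10060, while the highest peak of replicate 1 (fold of 52.9), on chromosome 11, was near no protein-coding gene end. On chromosome X 386 of 966 protein-coding genes had a region.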
